A study of Mus musculus with 4 samples.

Results

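The genes examined here are 9 chaperones and folding enzymes of the endoplasmic reticulum, Hspa5, Hyou1, Hsp90b1, Sdf2l1, Calr, Canx, Pdia3, Pdia4 and Pdia6, and the transcription factor gene Xbp1. They were chosen by name, with earlier results of these data known, as 10 of the 35427 genes to which the deposited transcripts were summed. All 10 passed the filter on low counts that left 14907 measured genes. The RNA came from the hippocampus of mice on the C57BL/6J background, 4 months old, with the alleles P2RY12CreER and Rpl22HA. With these RiboTag alleles Cre, driven from a gene typical of microglia, switches on a tagged ribosomal protein, and messages on tagged ribosomes are recovered with an antibody. Fear conditioning, in which mice learn to link a setting or signal to a shock, preceded both conditions. The control group then slept for 6 h and the sleep-deprived group was kept awake for those 6 h. Each group has 2 deposited files. The labels give each of the 4 samples as a pool of 2 mice, but the files of a group agree more closely than separate libraries would. The sources used here do not say how the Cre was induced.

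The files hold between 14431647 and 14877011 estimated reads. Within each group the 2 files agreed more closely than counting noise alone would give (chi-square per degree of freedom 0.334 in control and 0.226 in sleep deprived, against 69.2 to 69.4 between groups), so they were averaged and counted as 1 library. Every comparison therefore sets 1 library against 1 library (n = 1 per group), and no p-value is given. Values are CPM, reads scaled by TMM to a common library size, and the ratio is sleep deprived over control. Its range in brackets is the 95% interval from counting error, which holds nothing about differences between mice or pulldowns. A gene is called higher or lower when its ratio is at least 2-fold and the interval excludes 1, and 1.5-fold serves as a second threshold.

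Proteins bound for the cell surface, the lysosome or secretion fold inside the endoplasmic reticulum. Hspa5 (BiP) holds unfolded chains, the lectins calnexin and calreticulin hold sugar-bearing ones, and the disulfide isomerases join their cysteines. When unfolded protein builds up, the sensors Ern1, Atf6 and Eif2ak3 start the unfolded protein response. Ern1 cuts a short intron out of the Xbp1 message in the cytoplasm, and the resulting Xbp1 protein and cleaved Atf6 switch on chaperone genes. Microglia, which secrete complement and carry many surface receptors, use this pathway, as do neurons and all other cells of the hippocampus.

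The intron that Ern1 removes is shown because it decides which Xbp1 protein is made. It was found in the GENCODE M21 sequence of transcript Xbp1-201 as a stretch of 26 bases between copies of the loop letters CNGCNGN. The coding sequence held 2 such pairs of loops, and the one whose removal leaves the longer open reading frame was taken. With the intron the frame holds 267 codons, and without it 371. Capitals mark the intron, which lies in coding exon sequence at chr11:5524279-5524304 (GRCm38, plus strand), within the printed stretch chr11:5524267-5524316.
Xbp1 intron with flanks: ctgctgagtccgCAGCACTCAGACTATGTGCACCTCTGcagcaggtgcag

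Promoter letters of the response are shown next, because 9 of the 10 genes have a window in the RefSeq table (GRCm38.p6), from 250 bases before the start of the gene to 50 after it. The stress element ERSE was searched as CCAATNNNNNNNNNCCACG on both strands. It was found in 5 of these 9 windows and in 37 of 27025 genes with a window (0.137%). Capitals mark the fixed letters, and each line reads along the gene's strand. The matches lie at chr2:34772021-34772047 (Hspa5), chr10:86705634-86705660 and chr10:86705529-86705555 (Hsp90b1), chr8:84847071-84847097 (Calr), chr11:50325796-50325822 (Canx) and chr12:17266487-17266513 (Pdia6).
Hspa5: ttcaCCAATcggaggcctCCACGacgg
Hsp90b1, first: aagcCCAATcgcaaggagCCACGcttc
Hsp90b1, second, opposite strand: agtgCGTGGtgaggcacgATTGGtgag
Calr, opposite strand: aacgCGTGGtcgaccctcATTGGccca
Canx: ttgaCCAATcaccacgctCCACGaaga
Pdia6: gagaCCAATgaaaggcggCCACGgcgt

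No window of a member held ERSE-II, searched as ATTGG and CCACG with 1 base between, or the core TGACGTGG of the Xbp1 element, on either strand. These letters stood in 12 genes (0.0444%) and 193 genes (0.714%) of the table. The windows of Pdia3, Pdia4, Sdf2l1 and Xbp1 held none of the 3 motifs, which says only that those exact letters are not in those windows.

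Of the 10 genes, 9 had a ratio above 1 with an interval that excluded 1, against 31.4% of all measured genes. Canx was the exception. The median log2 ratio of the members was 0.48 (1.39-fold), beside −0.01 over all measured genes. Past 2-fold stood 1 of 10, Sdf2l1, with 4.24% of measured genes called higher, and 0 of 10 were lower, with 5.65% called lower. Past 1.5-fold stood 4 of 10, Hyou1, Pdia4, Sdf2l1 and Xbp1, with a background of 12.5% higher and, for the 0 members lower, of 13.6%. The shares were also taken among genes whose mean reached 20 CPM. Of the 8 members at that level, 7 had an interval above 1 (background 41.4%), 2 were higher past 1.5-fold (10.9%) and 0 past 2-fold (1.71%). None of the 8 was lower past 1.5-fold (9.06%) or 2-fold (1.58%). Summed over the members, the files held 786 and 783 CPM in control and 1038 and 1033 CPM in sleep deprived, a ratio of 1.32 (1.29 to 1.35).

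**Figure D1:**
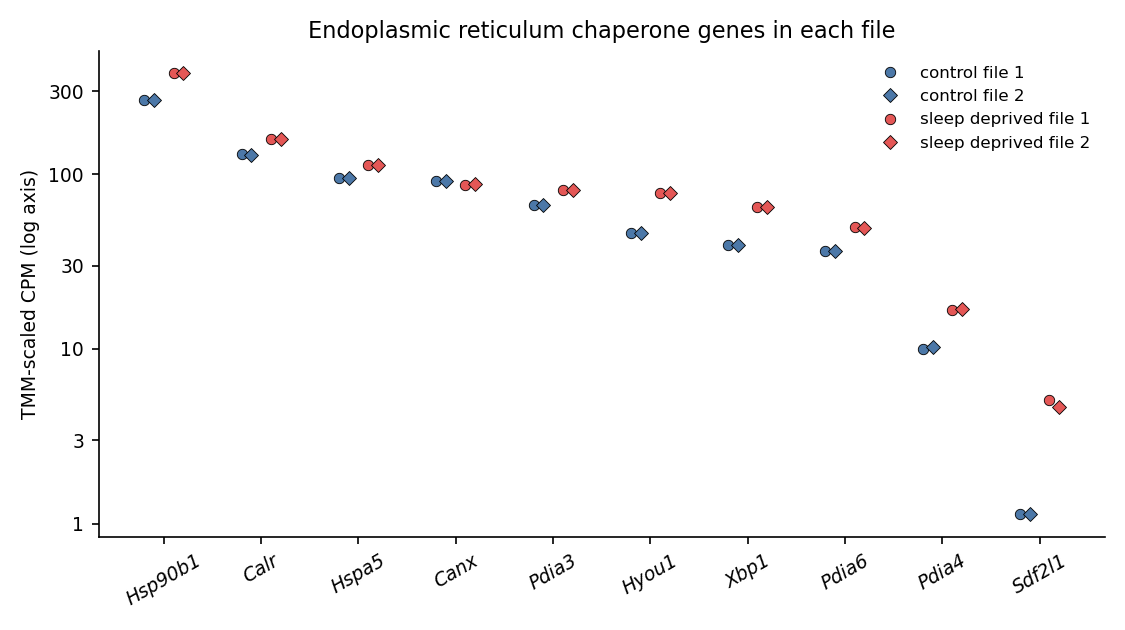
TMM-scaled CPM (log axis) of the 10 genes in each of the 4 files, with control in blue and sleep deprived in red, and with circles and diamonds for files 1 and 2 of a group. The files of a group nearly coincide, and the sleep-deprived files lie above the control files for every gene but Canx.

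Among the Hsp70 and Hsp90 chaperones, the ratio was lowest for Hspa5 and highest for Hyou1. Hspa5, the Hsp70 of this compartment and the brake on its stress sensors, was at 95.1 and 95.5 CPM in the control files and at 113 and 113 CPM in the sleep-deprived files. The ratio was 1.19 (1.10 to 1.28), which lies between the quartiles of all measured genes, above 68.3% of them. Hyou1, a large Hsp70 relative that exchanges the nucleotide of Hspa5, was at 45.9 and 46.1 CPM and at 78.1 and 78.3 CPM. Its ratio of 1.70 (1.54 to 1.87) lay above the interval of Hspa5. Hsp90b1 (GRP94), the Hsp90 of the compartment, which folds Toll-like receptors and integrins, was at 268 and 267 CPM and at 381 and 379 CPM, for a ratio of 1.42 (1.36 to 1.48). For all 3 genes both sleep-deprived files lay above both control files. On GRCm38, Hspa5 lies at chr2:34771970-34777547, Hyou1 at chr9:44379490-44392369 (both plus strand) and Hsp90b1 at chr10:86690209-86705509 (minus strand).

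Sdf2l1 had the highest ratio of the members and the lowest level. The gene lies at chr16:17130138-17132383 on the minus strand. It encodes a partner of the Hsp40 protein Dnajb11 that keeps clients of Hspa5 from aggregating. The control files held 17 and 17 estimated reads, or 1.13 and 1.13 CPM, and the sleep-deprived files 72 and 66 reads, or 5.08 and 4.67 CPM. The ratio was 4.32 (2.51 to 7.84), above that of 99.3% of measured genes. All reads fell on its 1 annotated transcript, Sdf2l1-201, of 1108 bases. No exon base of the gene lies in another gene, and 0.649% of its 31-base stretches also stand in Eif2b1. The interval is wide with so few reads, and its lower bound lies above the ratios of the other 9 members.

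Of the lectin chaperones, 1 of 2 had an interval above 1. Calr, the soluble lectin calreticulin, was at 131 and 129 CPM in control and at 160.2 and 159 CPM in sleep deprived, a ratio of 1.23 (1.15 to 1.30). Canx, its membrane-bound relative calnexin, was at 91.5 and 91.7 CPM and at 87.4 and 87.5 CPM, for a ratio of 0.955 (0.883 to 1.03). Its interval includes 1, and it excluded 1 in opposite directions under other settings, at a ratio of 1.33 with a correction for the mean transcript length in each library and of 0.922 under scaling by total reads. Calr lies at chr8:84841850-84846934 and Canx at chr11:50293961-50325673, both on the minus strand. Canx was the only member whose sleep-deprived files were not above the control files.

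The disulfide isomerases all had intervals above 1. Pdia3 (ERp57), which works on sugar-bearing clients held by the lectins, was at 66.9 and 67.0 CPM and at 81.1 and 80.9 CPM, for a ratio of 1.21 (1.11 to 1.32). Pdia6, which also acts on the stress sensors, was at 36.3 and 36.2 CPM and at 49.7 and 49.5 CPM, for a ratio of 1.37 (1.22 to 1.53). Pdia4 (ERp72) was at 10.01 and 10.3 CPM and at 16.7 and 17.0 CPM. Its ratio of 1.66 (1.35 to 2.04) lay above the interval of Pdia3 and overlapped that of Pdia6. Pdia3 lies at chr2:121413775-121438687 and Pdia6 at chr12:17266545-17284770 on the plus strand, and Pdia4 at chr6:47796141-47813430 on the minus strand.

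Xbp1, the transcription factor of the response, was at 39.6 and 39.2 CPM in control and at 64.9 and 65.0 CPM in sleep deprived. The ratio was 1.65 (1.49 to 1.83), above that of 90.3% of measured genes. The gene lies at chr11:5520659-5525893 on the plus strand. Its interval overlapped those of Hyou1, Pdia4 and Pdia6 and lay above those of Hspa5, Calr, Canx, Pdia3 and Hsp90b1.

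**Figure D2:**
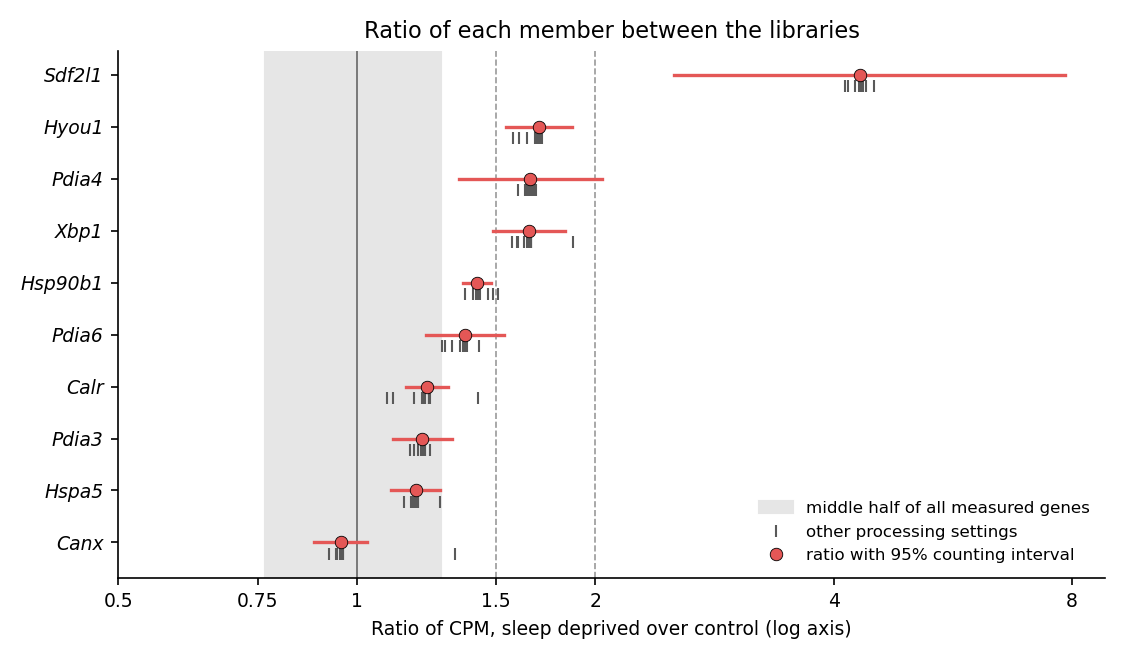
Ratio of CPM, sleep deprived over control (log axis), for each gene with its 95% counting interval in red, values under other processing settings as grey ticks and the range between the quartiles of all measured genes as the grey band. Dashed lines stand at 1.5 and 2, and Sdf2l1 at 4.32 lies apart from the other 9 genes, which run from 0.955 to 1.70.

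Among the members with a window, those past 1.5-fold were without the ERSE letters, and Hyou1 had no window. The 5 genes with the ERSE letters had ratios from 0.955 to 1.42 with 0 past 1.5-fold. The 4 with a window and no match had ratios from 1.21 to 4.32, an overlapping range, with 3 past 1.5-fold. Of all measured genes 12.5% were higher past 1.5-fold. Outside the members, 32 genes had the letters, and 15 of them were measured, with a median ratio of 1.25. Of those 15 genes, 9 had an interval above 1, against 31.4% of all measured genes. An interval below 1 was seen for 1 of them, against 4547 of 14907 measured genes.

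The files list reads per transcript, and GENCODE M21 holds 45 transcripts of the 10 genes, of which 28 had at least 10 reads in a group's mean and 8 had none in any file. A transcript value is a model's split of reads that several transcripts share. Of the 28, 11 were called higher against 23.5% of all transcripts so tested, and 0 were lower against 13.5%. By annotated type, 7 of 12 retained-intron transcripts were called higher (background 30.5%) and 3 of 14 coding transcripts (19.5%). Canx-202 and Xbp1-204 reached 10 reads in sleep deprived alone and Pdia3-202 in control alone, so each of these could be called in 1 direction only.

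The main coding transcript carried most reads of each gene in both libraries, and in 6 genes its ratio was below that of the gene total. For Calr-201 the ratio was 1.09 (1.02 to 1.17), for Hspa5-202 it was 1.15 (1.07 to 1.24), and for Pdia6-201 it was 1.27 (1.12 to 1.44). Hyou1-201 had a ratio of 1.57 (1.41 to 1.74), Xbp1-201 one of 1.48 (1.32 to 1.66) and Canx-201 one of 0.944 (0.864 to 1.03). Canx-205, a longer coding form with 22.2% of the reads of Canx in control and 20.3% in sleep deprived, had a ratio of 0.873 (0.736 to 1.03). Hsp90b1-201, at 236 and 351 CPM, went the other way, with a ratio of 1.48 (1.42 to 1.55) above the gene's 1.42. Pdia3-201 carried 98.8% and 99.5% of its gene's reads and had a ratio of 1.22 (1.12 to 1.33). All reads of Pdia4 fell on Pdia4-201.

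Transcripts that keep an intron made up part of the difference in several members. In Calr they took 11.1% of the reads in control (exact binomial interval 9.68% to 12.5%) and 20.8% in sleep deprived (19.1% to 22.5%). The share was 13.7% and 19.98% in Hyou1, 8.88% and 14.8% in Pdia6, and 7.79% and 12.1% in Xbp1. In Hspa5 it was 2.16% and 3.02%. Hsp90b1 went the other way, from 11.8% (10.8% to 12.8%) to 7.75% (7.04% to 8.48%). So did Pdia3, from 1.15% to 0.462% on means of 11.6 and 5.30 reads, with overlapping intervals (0.617% to 2.07% and 0.142% to 1.02%). The share was thus higher in 5 of 7 members with such reads, near the 65.2% of 5548 genes in which it was higher, and over all genes it went from 10.6% to 13.3% of reads.

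The single forms called higher were of this kind for the most part. Calr-204 was at 9.51 and 22.1 CPM, for a ratio of 2.32 (1.90 to 2.85), and Calr-203 had a ratio of 2.83 (1.98 to 4.10). Hyou1-207 stood at 4.54 and 12.8 CPM, with ratio 2.82 (2.12 to 3.78). Pdia6-204 had a ratio of 2.29 (1.49 to 3.61), Pdia6-202 one of 2.26 (1.21 to 4.39) and Hspa5-205 one of 2.13 (1.11 to 4.26). The retained-intron form Hsp90b1-202, with 10.8% and 7.27% of its gene's reads, had a ratio of 0.954 (0.830 to 1.10). Outside this class, Hspa5-201, a longer coding form, went from 18 and 9 reads to 43 and 43, a ratio of 3.27 (1.75 to 6.47). The noncoding Canx-202 had 0 reads in both control files and 29 and 34 in the sleep-deprived files. Its ratio was 10.996 with the control library set at 3 reads, and its interval ran from 8.42 with no upper bound.

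**Figure D3:**
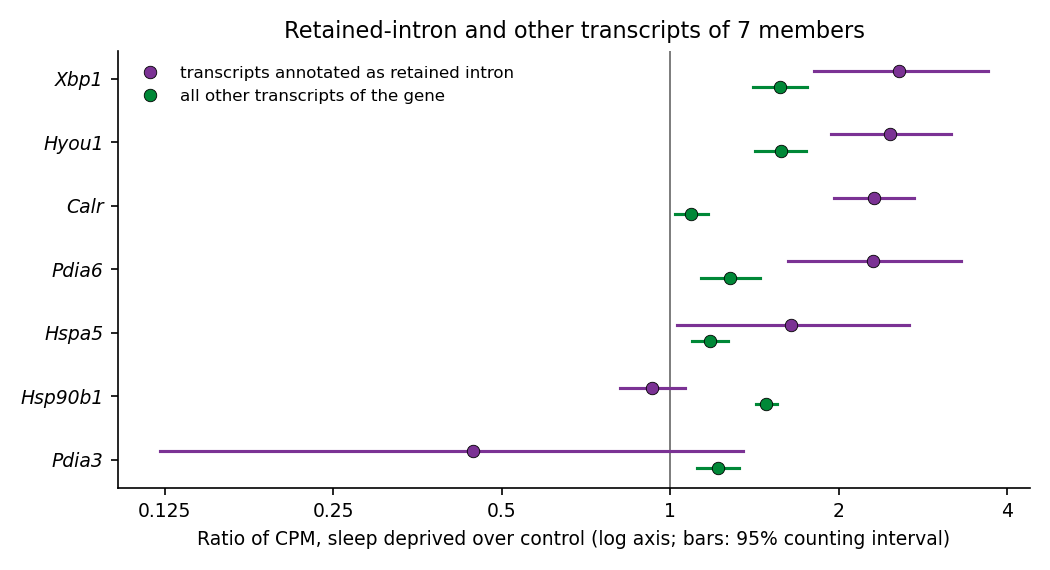
Ratio of CPM, sleep deprived over control (log axis), for the retained-intron transcripts of a gene summed (purple) and for all its other transcripts summed (green), with 95% counting intervals, in the 7 members that have at least 10 retained-intron reads in a library. Purple lies above green in Xbp1, Hyou1, Calr, Pdia6 and Hspa5 and below it in Hsp90b1 and Pdia3. The purple and green intervals overlap in Hspa5 and Pdia3.

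With retained-intron transcripts left out, the ratio of Calr was 1.09 (1.02 to 1.17) and that of Hsp90b1 1.48 (1.42 to 1.55). Xbp1 stood at 1.57 (1.41 to 1.76) and Hyou1 at 1.58 (1.42 to 1.75) on the same count. Both stayed above 1.5-fold.

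Xbp1 had 4 annotated transcripts. Xbp1-201, the full coding form, carried 86.7% of the reads in control and 77.9% in sleep deprived. Xbp1-202, which runs on into the intron after the third exon of Xbp1-201 and ends there, was at 3.07 and 7.83 CPM, for a ratio of 2.57 (1.81 to 3.70). Xbp1-204 starts inside the first intron and has 260 exon bases of its own (chr11:5521663-5521922). It held 9 and 8 reads in the control files and 56 and 65 in the sleep-deprived files, a ratio of 8.11 (3.87 to 19.6). Its share of the gene's reads was 1.35% in control and 6.59% in sleep deprived. Xbp1-203 had a ratio of 1.32 (0.754 to 2.33), which includes 1.

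Removal of the intron by Ern1 could not be read from these files. Of the 4 transcripts, 3 hold the 26 bases printed above, Xbp1-202 ends before them, and 0 transcripts in the whole annotation carry the joined ends. Reads from the cut message therefore had no sequence of their own to be counted on, and the values of Xbp1 say nothing about the share that was cut.

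**Figure D4:**
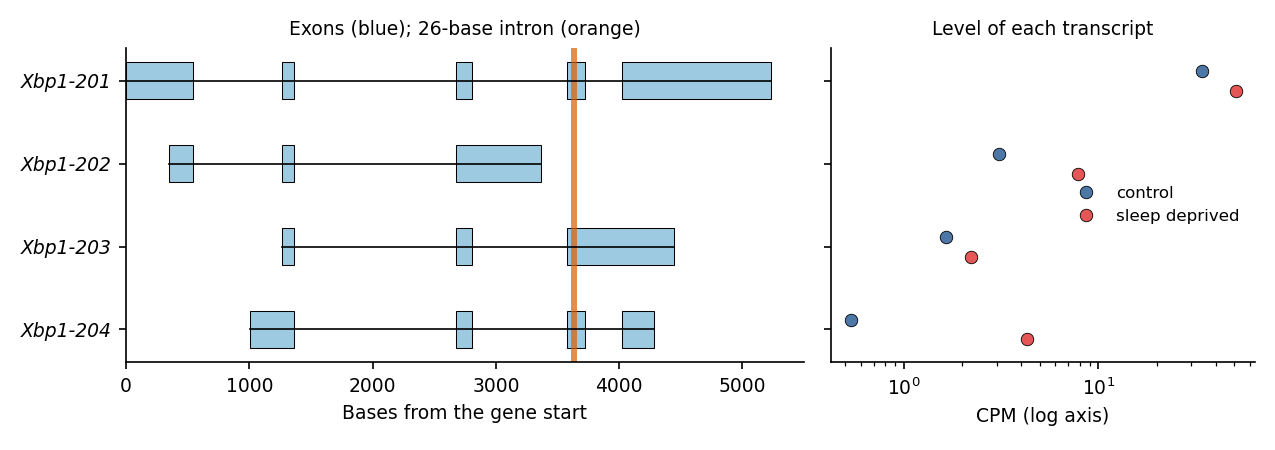
Left, exons (blue) of the 4 Xbp1 transcripts by distance in bases from the gene start, with the 26-base intron in orange, drawn wider than scale so that it can be seen. Right, CPM of each transcript (log axis) in control (blue) and sleep deprived (red): all 4 are higher in sleep deprived, and Xbp1-204 is farthest apart, at 0.532 and 4.28 CPM.

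Levels of different genes were compared on the authors' TPM, which divides by transcript length. In control Hsp90b1 stood first at 180 and 171 TPM, then Calr at 133 and 132 and Hspa5 at 72.1 and 74.8. Canx at 41.3 and 55.9, Pdia6 at 47.9 and 46.6, Pdia3 at 44.6 and 44.8 and Xbp1 at 40.03 and 40.5 TPM followed, and the files of Canx spanned the levels of Pdia6 and Pdia3. The spread of Canx came from Canx-203, a form of 234 bases to which 2 reads gave 14.5 TPM. Hyou1 stood at 25.3 and 25.7, Pdia4 at 7.47 and 7.71 and Sdf2l1 at 2.11 and 2.12 TPM. In sleep deprived the first 3 places were the same, and Xbp1, at 87.1 and 88.5 TPM, stood above Pdia6 at 78.9 and 77.96. The Canx files, at 63.3 and 88.0 TPM, lay on either side of Pdia6.

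On the TPM scale every member had a ratio above 1, from 1.38 for Pdia3 to 5.05 for Sdf2l1, with a median of 1.68. TPM was shifted between the libraries for genes in general, with a median ratio of 1.16 over the measured genes, and all 10 members lay above that median. Canx had a TPM ratio of 1.56 beside its CPM ratio of 0.955. Most of its rise in TPM lay in the short forms Canx-203 and Canx-202. Canx-203 went from 0 and 14.5 TPM in the control files to 8.97 and 33.4 TPM in the sleep-deprived files. These values rest on 0 and 2 reads and on 1 and 3.7 reads. Canx-202 went from 0 TPM in both control files to 8.47 and 9.73 TPM. The main coding form Canx-201 was at 32.5 and 32.1 TPM in control and at 35.9 and 35.4 TPM in sleep deprived.

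The wider folding pathway was taken from a list of 133 other genes in 10 roles, of which 130 were measured. Past 2-fold stood 1 of 130 higher, with 4.24% of all measured genes called higher, and 0 were lower, with 5.65% called lower. Past 1.5-fold stood 14 higher (background 12.5%) and 3 lower (13.6%), a split that moved with the scaling, to 11 and 6 under upper-quartile factors and to 10 and 10 under total reads. The median log2 ratio of the list was 0.03, and 72 genes lay above 1 and 58 below. The members' median was 0.48 on the same scale. The gene called higher was Derl3, a channel protein that helps take misfolded proteins out for degradation, with 8 and 8 reads in the control files, 27 and 25 in the sleep-deprived files and a ratio of 3.46 (1.52 to 8.84). It passed the filter on low counts through the sleep-deprived library alone, so it could be called in 1 direction only.

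By role, the highest medians were those of N-glycan processing (1.25-fold, with 8 of 14 genes having an interval above 1 and 3 below) and of the prolyl isomerases (1.16-fold, 3 of 7 above and 1 below). Over all measured genes 31.4% had an interval above 1 and 4547 of 14907 one below. Ppib (cyclophilin B), a prolyl isomerase, was at 176 and 317 CPM, for a ratio of 1.80 (1.72 to 1.89). Uggt2, of the family that returns misfolded glycoproteins to the lectins, had a ratio of 1.23 (1.14 to 1.33). Erp29, a folding factor, was lower at 114 and 63.8 CPM, for a ratio of 0.562 (0.518 to 0.609). The other genes taken as the most abundant of their role were Atf4 at 1.12 (1.05 to 1.19), Mbtps1 at 0.891 (0.846 to 0.940), Sdf2 at 0.857 (0.745 to 0.986), Ufd1 at 1.09 (1.01 to 1.18), Ssr4 at 1.01 (0.934 to 1.09), Sec31a at 1.01 (0.940 to 1.09) and the calcium channel gene Itpr1 at 0.710 (0.695 to 0.726).

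The 6 genes listed as stress sensors had 2 intervals above 1 and 2 below. Ern1, which cuts Xbp1, had a ratio of 1.23 (1.08 to 1.42), Eif2ak3 (PERK) one of 0.997 (0.9005 to 1.10) and Atf6 one of 0.812 (0.713 to 0.924). Atf6b, the paralog of Atf6, was at 48.5 and 75.2 CPM, with a ratio of 1.55 (1.41 to 1.71). Some targets and partners were named for their roles after their values were seen, and they lay on both sides of 1. Ddit3 (CHOP), a target of the Eif2ak3 branch, had a ratio of 0.841 (0.728 to 0.970). Dnajb9, a target of Xbp1, had one of 0.756 (0.622 to 0.917), and Herpud1 one of 0.899 (0.797 to 1.02). Dnajb11, the Hsp40 protein that Sdf2l1 binds, was at 38.7 and 56.3 CPM, for a ratio of 1.46 (1.31 to 1.62). Syvn1 and Edem1, which act in the degradation of misfolded proteins, had ratios of 1.51 (1.36 to 1.68) and 1.45 (1.25 to 1.69), and Creld2 one of 1.20 (1.03 to 1.41).

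**Figure D5:**
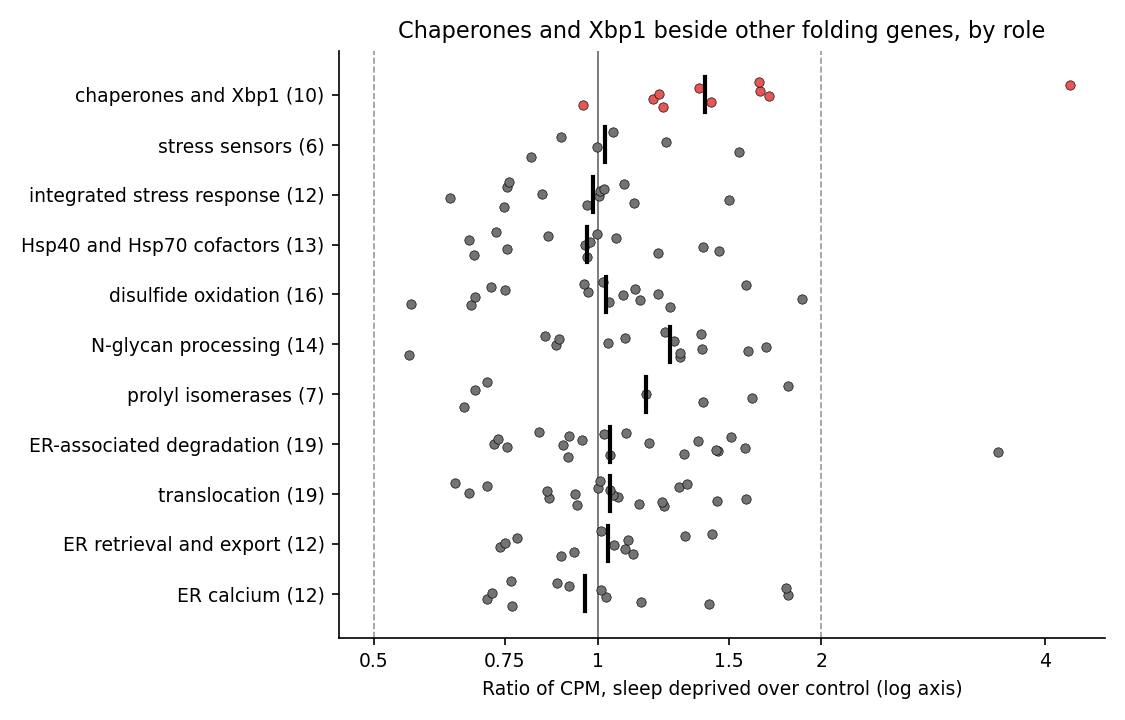
Ratio of CPM, sleep deprived over control (log axis), for the 9 chaperone and folding enzyme genes and Xbp1 (red) and for 130 other folding genes grouped by role (grey), with the median of each group as a black bar and the number of genes in brackets. The red median stands at 1.39, the group medians of the other roles lie between 0.962 and 1.25, and Derl3 is the grey point past 2.

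The chaperones were also set beside their closest relatives outside this group, on reads of both genes, a contrast that does not depend on how libraries are scaled. Hspa8, the constant Hsp70 of the cytosol, was at 702 and 716 CPM in control and at 452 and 457 CPM in sleep deprived. Hspa5 over Hspa8 was therefore 1.85 times as high (1.71 to 2.003) in sleep deprived as in control. Hsp90ab1, a cytosolic Hsp90, was at 559 and 561 CPM and at 317 and 317 CPM, and Hsp90b1 over Hsp90ab1 was 2.51 times as high (2.38 to 2.65). Over Hsp90aa1 the figure was 1.96 (1.86 to 2.08). In TPM, Hsp90b1 stood at 0.407 of Hsp90ab1 in control and at 1.04 of it in sleep deprived.

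The other pairs pointed the same way. Hyou1 over Hspa4, its cytosolic relative, was 1.80 times as high (1.603 to 2.02). Sdf2l1 over Sdf2, its paralog in the same compartment, was 5.03 times as high (2.87 to 9.29), since Sdf2 itself was at 29.8 and 30.98 CPM and at 25.9 and 26.3 CPM. These pairs were picked with the ratios of the cytosolic genes known, so their direction is a description.

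Several sets of cell type markers moved between the libraries too. In RNA recovered by a pulldown, the number of cells of a type, their RNA per cell and the yield of the pulldown cannot be told apart. Of all measured genes 4.24% were called higher and 5.65% lower. Of 10 microglia markers 9 were called higher, and their sum was 160 and 159 CPM in control and 516 and 516 CPM in sleep deprived. Neuron markers (0 of 7 called) summed to 2553 and 2547 CPM and to 2146 and 2142 CPM, most of it Snap25. They went both ways, with Slc17a7 of excitatory neurons at a ratio of 1.70 and Rbfox3 at 1.15, and Gad1 and Gad2 of inhibitory neurons at 0.575 and 0.615. Astrocyte markers (2 of 5 lower) summed to 831 and 831 CPM and to 495 and 493 CPM, and oligodendrocyte markers (2 of 5 lower) to 2999 and 2987 CPM and to 1844 and 1835 CPM. Choroid plexus markers, of a secretory tissue, summed to 331 and 332 CPM and to 334 and 333 CPM, most of it Ttr (ratio 1.03), with 0 of 5 called. The others went both ways, with Kcne2 at 0.519 (0.349 to 0.763), Clic6 at 0.767 (0.653 to 0.899), Folr1 at 0.905 (0.445 to 1.82) and Aqp1 at 1.61 (0.988 to 2.68). Endothelial markers (0 of 4 called) summed to 131 and 131 CPM and to 127 and 127 CPM. Mural markers (0 of 3 called) summed to 60.7 and 60.2 CPM and to 52.1 and 52.2 CPM. Plasma cell markers summed to 7.69 and 7.65 CPM and to 5.83 and 5.78 CPM, with 2 of 3 measured. No marker had fewer than 3 reads in both libraries. The part of these shifts in the ratios of the chaperones was not tested, and no total RNA from ahead of the pulldown was used here.

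Some reads of the members could belong to other genes. In the letters, 11.9% of the 31-base stretches of the coding transcripts of Hsp90b1 also stand in 1810014B01Rik, a pseudogene on the opposite strand that covers 10.3% of its exon bases, and 3.65% stand in Gm25745. Calr shares 2.60% of its stretches with its pseudogene Calr-ps. The sources used here do not say whether counting used strand.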

How the data were processed

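The estimated counts (reads per transcript, not whole numbers) and the TPM values are the authors' own, deposited side by side for 116546 transcripts per the file headers. The submitters' processing notes list Salmon, DESeq2 and mm10, and the sources used here give neither the Salmon version nor its index. Transcript lengths and effective lengths, also deposited by the authors, were used as other inputs. In the files 99.2% of transcripts over 1000 bases have an effective length that is 250 bases shorter than the full one. Groups were taken from sample titles, since the treatment field of the labels reads sleep deprivation throughout.

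Identifiers without version matched GENCODE M21 (GRCm38) for 99.4% of transcripts, and reads on the others (0.339% to 0.366% of a file) were left out. Reads were summed per gene, the files of a group averaged, the means rounded to whole reads, and libraries scaled by TMM (edgeR 4.0.16, R 4.3.3) after filterByExpr with a minimum count of 10. Ratios carry exact conditional (Clopper-Pearson) 95% intervals (scipy 1.17.1), which cover counting error only, and a library under 3 reads was set to 3 for a fold. With 1 library per group the edgeR quasi-likelihood test, planned for files that differ within a group, was not run. DESeq2 1.42.0 gave size factors only. The genes and transcripts named by rule are all members, pathway genes past 2-fold, the gene of highest TPM in each role, and transcripts that lead their gene, hold 10% of its reads or pass the call. The members and lists were chosen with earlier results of these data known.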

Additional observations from a re-analysis of the deposited data

How the results depend on the processing

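The direction of the 9 members above 1 held under all 11 alternatives (DESeq2 size factors, upper-quartile factors, total reads, no filter, a transcript length offset, coding transcripts only, retained-intron transcripts left out, and each file left out), of which the one without retained-intron transcripts was chosen after seeing the data, as was the background at 20 CPM. Canx was above 1 under 1 of them, the length offset (1.33), and lowest under total reads (0.922), with an interval that excluded 1 in both cases. Past 2-fold stood Sdf2l1 alone under every setting, between 4.13 and 4.503. With coding transcripts only, Hsp90b1 (1.51) joined the 4 members past 1.5-fold. The median log2 ratio ran from 0.473 to 0.484 with a file left out. Settings with a file left out test little, here and below. The files of a group agree more closely than counting noise and count as 1 library, so dropping a file could hardly change a direction.

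Hspa5-205 was no longer called without control file 2, without sleep-deprived file 2 or at a minimum of 30 reads. In the wider pathway the counts moved more. Backgrounds in brackets are shares of all measured genes under the same setting. Genes called higher were 6 with the length offset (background 5.45%) and 2 with coding transcripts only (background 6.67%). With a file left out they were between 1 and 2 (background 4.21% to 4.35%), the 2, with Pdia5, being without control file 1. Genes called lower were 1 with the length offset (background 6.82%) and 1 with coding transcripts only (background 6%). Genes past 1.5-fold were 11 higher and 6 lower with upper-quartile factors and 10 and 10 with total reads, against 14 and 3. The lower ones were 6 with the length offset, 11 with coding transcripts only, and between 3 and 5 with a file left out (5 without sleep-deprived file 1). Member transcripts called higher were 10 to 11 and those called lower 0 to 1 with a file left out, the last being Hsp90b1-204 without control file 2. The TPM share of Xbp1-204 was 3.28% in control and 14.1% in sleep deprived, and the cause of these shifts was not tested. Its share of reads was 1.27% to 1.43% and 6.12% to 7.07% with a file left out. Sdf2l1, Derl3 and Xbp1-204 rest on few reads. No paired analysis was possible because the 2 files of a group count as 1 library.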
